A study of Homo sapiens with 15 samples.

Results

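The loss of CpG methylation after UHRF1 knockdown was measured in 3 clones of HCT116, an established human colorectal carcinoma cell line whose DNA is heavily methylated. The comparison used 6 of the 15 whole-genome bisulfite sequencing libraries, chosen by their labels as the Baseline and the Knockdown library of Cl.3, Cl.6 and Cl.9, and the comparison was always made within a clone. All cells of both groups, controls included, carried a lentiviral, doxycycline-inducible short hairpin RNA (shRNA) directed at the UHRF1 3′ untranslated region and had been selected with puromycin. Baseline cells were sampled at day 14 without doxycycline, on the DMSO vehicle. Knockdown cells were sampled at day 14 after 14 days with 10 ng/mL doxycycline, on plates kept in parallel. At the end, 4 Baseline and Knockdown libraries of the bulk HCT116 populations R1 and R2 are set beside the clones. These carried an inducible shRNA against DNMT1 and were sampled at day 14, without doxycycline or after 14 days with 10 ng/mL. Each clone was grown out of a single cell by serial dilution, so the 3 replicates are 3 clones of 1 line and not 3 lines. The files hold methylation and no expression, so neither the depletion of UHRF1 nor the expression of colon markers was checked here. A methylation level is an average over the cells of a culture, and a partial loss in all cells and a full loss in some of them cannot be told apart.

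DNA methylation in mammals is copied at each cell division. Replication leaves CpGs methylated on the old strand only, UHRF1 binds these hemimethylated sites together with the histone H3 tail, ubiquitinates the histone tail and the replication-coupled factor PAF15, and thereby recruits DNMT1, which methylates the new strand. Promoters in CpG islands are mostly unmethylated, whereas gene bodies and the sequence between genes are mostly methylated, and in tumours many island promoters are methylated as well. Cells that divide with too little UHRF1 dilute their methylation, and how far each kind of sequence is diluted was the question put to these libraries.

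The 6 libraries held between 315732617 and 590592161 reads at CpGs of chromosomes 1 to 22, X and Y, with a median of 11 to 20 reads per CpG and 80.4% to 87.8% of CpGs at 5 reads or more. A single CpG read 12 times had a Wilson 95% confidence interval of up to 24.6 points on either side, which covers counting error only, so results rest on sums over many CpGs. Both Cl.9 libraries were deeper (median 20 reads) than those of Cl.3 and Cl.6 (11 to 13), and Cl.9 also lost the most methylation. The paper picked Cl.9 for its later experiments because this clone lost the most UHRF1 and the most methylation at knockdown. The part of depth or of UHRF1 level in that order was not tested. The Baseline library of Cl.6 stood apart in unmethylated DNA. Over the 2800 tested promoters with a mean Baseline level (mC, methylated reads over all reads of a CpG) under 5%, its median mC was 3.12%, against 0.804% in Cl.3 and 0.746% in Cl.9 at Baseline and 0.560%, 0.581% and 0.380% at Knockdown. Falls at nearly unmethylated promoters are therefore given for each clone.

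Single CpGs are shown first, from promoters chosen by the size of their fall. The 7 sequences below come from hg38 and are printed 5′ to 3′ on the plus strand, 30 bases each, with the measured CpG in capitals. The first 4 lie in the promoters with the largest falls and the others in 3 of the methylated promoters with the smallest falls, and in each promoter the CpG whose lowest read count over the 6 libraries was highest was taken.
GGT5, chr22:24245672-24245701: tggtgactacaagaCGcccatgtggggaat
ABCG1, chr21:42199326-42199355: aaagttaatctagaCGaaaatttgatttac
RACK1, chr5:181248184-181248213: ctccccaaccctctCGgttcaatctaagct
SLN, chr11:107719724-107719753: tgttcatgagcacaCGtgagccacccccaa
PCDH7, chr4:30719392-30719421: cgaaagctctcacgCGtgaactgggcatta
GNG4, chr1:235651632-235651661: accagtagaatcagCGtgtcacctgggaat
RPL3L, chr16:1957575-1957604: cctgccagtgggctCGtaatctcactggct
The ABCG1 CpG, with its nearest neighbour 60 bp away and 5 CpGs within 250 bp including itself, was methylated in 21 of 22, 34 of 36 and 36 of 45 reads at Baseline in Cl.3, Cl.6 and Cl.9. At Knockdown it was methylated in 1 of 20, 3 of 26 and 2 of 38 reads. The GGT5 CpG went from 18 of 18, 17 of 21 and 27 of 27 reads to 6 of 17, 0 of 22 and 6 of 20, where 0 of 22 reads allows a level of up to 13.6%. The PCDH7 CpG had another CpG 2 bp away and 26 within 250 bp, and it kept methylation in 10 of 10, 9 of 9 and 20 of 22 reads at Knockdown after 15 of 16, 9 of 9 and 22 of 22 at Baseline. The GNG4 CpG also kept most of its methylation, with 22 of 22, 17 of 20 and 28 of 33 reads at Knockdown, although only 7 CpGs lay within 250 bp of it. Other CpGs of both sets were less clear. The RACK1 CpG was methylated in 34 of 34, 10 of 22 and 41 of 45 reads at Baseline and in 3 of 19, 2 of 25 and 3 of 49 at Knockdown. The SLN CpG went from 15 of 16, 22 of 24 and 16 of 28 reads to 15 of 23, 8 of 17 and 3 of 24. The RPL3L CpG was methylated in all reads at Baseline (8, 6 and 16) and in 6 of 6, 8 of 8 and 6 of 12 at Knockdown, so that it lost methylation in Cl.9.

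Gene bodies and intergenic sequence lost about 20 points of mC in the mean of the clones, and promoters lost 12.6. Each CpG with at least 5 reads in both libraries of a clone was put in a promoter (the stretch from 1 kb before an annotated gene start to 100 bp past it), otherwise in a gene body, otherwise between genes. The measured CpGs were not the same set in each clone, with 1110457, 1162009 and 1390940 promoter CpGs in Cl.3, Cl.6 and Cl.9. The part of this in the differences between classes and clones was not tested. Promoter CpGs had a Baseline mC of 45.7%, 48.2% and 43.96% in Cl.3, Cl.6 and Cl.9 and fell by 8.15, 12.8 and 16.96 points at Knockdown, a mean of -12.6 ± 4.41 points (SD, n = 3). Gene body CpGs started at 79.0%, 80.1% and 76.9% and fell by 12.5, 18.8 and 29.4 points, with a mean of -20.2 ± 8.56 points. Intergenic CpGs started at 73.3%, 74.3% and 70.7% and fell by 13.0, 19.5 and 29.9 points, with a mean of -20.8 ± 8.53 points. Baseline and Knockdown levels did not overlap between clones in any of these classes, and each clone kept its place in all 3, with Cl.3 losing least and Cl.9 most. Without any knockdown, the Baseline libraries of the clones differed from each other by 0.818 to 3.04 points over all CpGs, in either direction. An exact two-sided sign-flip permutation over 3 clones cannot give a p below 0.25, and every class gave 0.25.

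**Figure D1:**
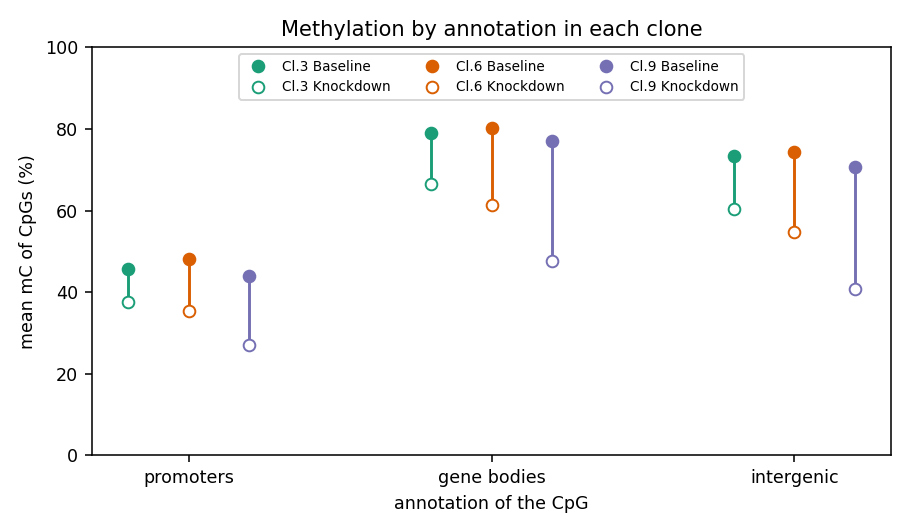
Mean mC (percent, y axis) of promoter, gene body and intergenic CpGs (x axis) in each clone, with filled points for Baseline and open points for Knockdown, joined by a line. In all 3 classes the Knockdown point lies below the Baseline point, and the drop is longest in Cl.9 and shorter in promoters than elsewhere.

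The difference between promoters and gene bodies depended on the Baseline level. In points, gene bodies fell further than promoters by 4.31, 6.07 and 12.5 in the 3 clones (mean -7.61 ± 4.28 points, exact sign-flip p = 0.25, the smallest possible). As a share of its own Baseline level, a promoter CpG lost 27.6% and a gene body CpG 25.8%, which turned the order. Restricting the comparison to CpGs with a Baseline mC of at least 85% also turned it, with gene bodies then falling by 0.770 points less than promoters. Gene bodies lost slightly less than intergenic sequence in every clone, by 0.554, 0.635 and 0.505 points (mean 0.565 ± 0.0654, exact sign-flip p = 0.25), and on the log odds scale this order was turned to -0.0537.

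The subdivisions of each class differed as well. Promoters of protein-coding genes fell by a mean of 9.57 ± 2.94 points from a Baseline of 31.2%, and promoters of other genes, mostly noncoding ones and pseudogenes, by 16.04 ± 6.19 points from 62.3%. Inside genes, coding exons fell by 17.6 ± 8.01 points, other exons by 19.01 ± 7.82 points and introns by 20.5 ± 8.69 points. Between genes the fall was 21.3 ± 8.95 points within 10 kb of a gene and 18.8 ± 7.14 points more than 100 kb from one, where the Baseline level was 59.4% rather than 79.4%. As percent of Baseline both orders turned, with changes of -30.7% in promoters of protein-coding genes and -25.9% in those of other genes, and of -26.9% within 10 kb of a gene and -32.1% more than 100 kb from one. The SDs are between clones, which differed in their total loss.

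The 3 classes were also compared at equal Baseline level and local CpG density. Promoter CpGs had a median of 27 CpGs within 250 bp, gene body CpGs 8 and intergenic CpGs 7. To compare like with like, CpGs methylated to at least 85% in the Baseline libraries of the other 2 clones were taken in each clone. With 1 to 2 CpGs within 250 bp, promoter, gene body and intergenic CpGs fell by 25.8, 25.1 and 26.0 points in the mean. With 9 to 16 they fell by 21.7, 19.9 and 20.8 points, and with 33 or more by 16.7, 16.6 and 15.2 points. In every class the loss was smaller at each step from sparse to dense sequence. In each of the 5 bins up to 32 CpGs, promoters lost more than gene bodies in every clone, for example 12.8, 19.8 and 32.6 points against 11.3, 18.03 and 30.5 points at 9 to 16 CpGs. With 33 or more CpGs the order differed between clones, with 10.5, 15.3 and 24.3 points in promoters and 9.59, 14.995 and 25.3 points in gene bodies. Over all densities these methylated CpGs lost 21.8 points in promoters, 21.5 in gene bodies and 22.5 between genes. In Cl.3, Cl.6 and Cl.9 the promoter CpGs lost 13.1, 19.8 and 32.6 points and the gene body CpGs 12.4, 19.3 and 32.9. The order of these 2 classes was thus not shared by the clones.

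**Figure D2:**
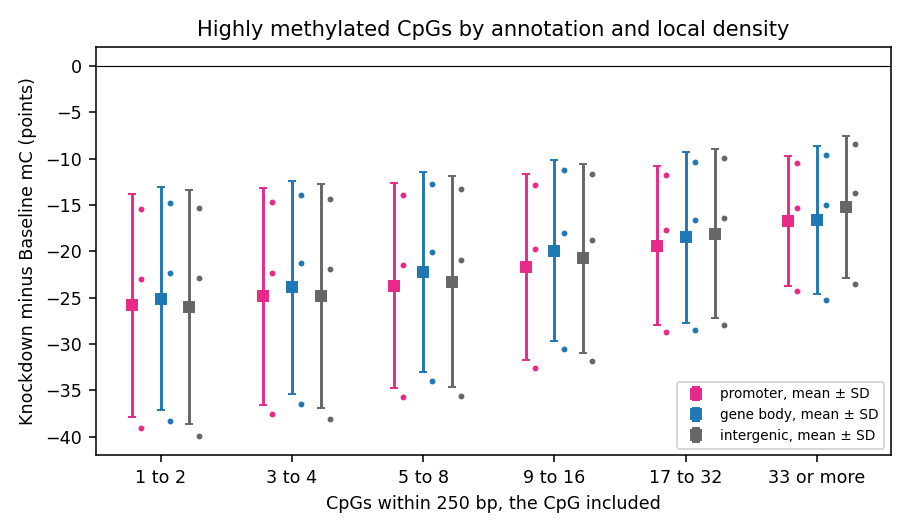
Knockdown minus Baseline mC (points, y axis) of CpGs highly methylated in the Baseline libraries of the other 2 clones, by the number of CpGs within 250 bp (x axis), with squares for the mean of 3 clones, bars for the SD and small points for the clones. In each class the loss shrinks from between 25.1 and 26.0 points in the sparsest to between 15.2 and 16.7 points in the densest sequence.

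Around the 5′ ends of protein-coding genes, methylation and its loss both had a trough. Promoters were divided by sequence into high-CpG (observed over expected CpG of at least 0.6 and GC content of at least 50%), low-CpG (observed over expected under 0.4) and intermediate ones. In the first 250 bp downstream of the 5′ end of high-CpG promoters, mC was 3.22%, 6.47% and 5.14% at Baseline and 2.67%, 3.32% and 3.62% at Knockdown. These values rest on 115055, 117648 and 173191 CpGs, the most in the deeper Cl.9. The higher starting value of Cl.6 there is the one described above. On the shores of these promoters, 1500 to 1750 bp downstream, the Baseline level was 73.0% and the fall 22.8 ± 7.95 points (SD, n = 3). Low-CpG promoters were methylated on the upstream side, where mC fell from 77.1% to 53.0% at 500 to 250 bp before the 5′ end, by 24.1 ± 9.28 points, the largest fall of their profile among the bins from -1000 to 1750 bp. Downstream they were partly methylated, and at 500 to 750 bp mC fell from 49.5% to 35.5%, by 14.02 ± 5.08 points.

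**Figure D3:**
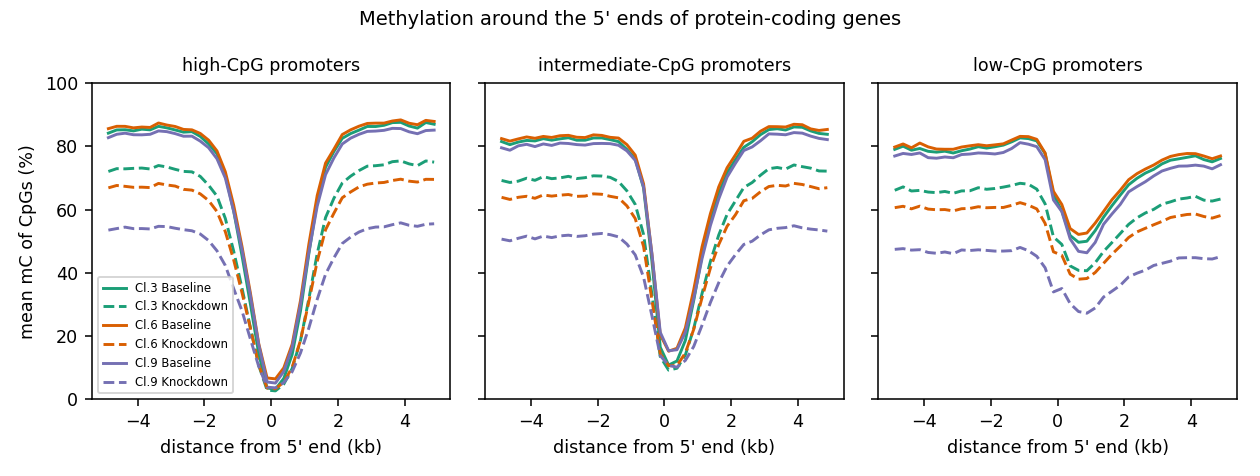
Mean mC (percent, y axis) by distance from the 5′ end (kb, x axis) in high-, intermediate- and low-CpG promoters, with 1 colour per clone, solid lines for Baseline and dashed lines for Knockdown. In high-CpG promoters all 6 lines meet near 0 at the 5′ end and separate on both shores. In low-CpG promoters the Baseline and the Knockdown line of each clone stay apart across the whole window.

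Most promoters fell in all 3 clones, and none rose by the test. Of 19970 promoters of protein-coding genes, 17630 passed the coverage filter (5 CpGs and 50 reads per library). Of these, 15370 were lower at Knockdown in all 3 clones and 9 were higher in all 3. edgeR's quasi-likelihood test on methylated and unmethylated reads, with the clone as a block, called 13993 falls (79.4%) and 0 rises at a Benjamini-Hochberg adjusted p under 0.05. At an unadjusted p under 0.05 there were also 0 rises, and limma called 12067 promoters. All 6 values separated, with every Knockdown level below every Baseline level, in 66.8% of promoters. Without Cl.6 it called 8992 promoters, 8989 of them falls and 3 rises. The features of a library share the total loss of their clone, so that these p-values are not independent of each other and rest on the spread of 3 clones.

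In points, how far a promoter fell followed where it started, and a promoter that starts low has few points to lose. The 2800 promoters with a Baseline mC under 5% had a median change of -0.314 points in Cl.3, -2.52 in Cl.6 and -0.426 in Cl.9, so that their median over the mean of the clones, -1.15 points, rested on Cl.6. The edgeR test called 1767 of them (63.1%), and 761 (27.2%) without Cl.6. Leaving out Cl.6 lowered the share called in the other classes as well, from 72.7% to 48.6% at 5% to 20% Baseline mC, from 65.3% to 27.9% at 20% to 50% and from 88.7% to 44.2% at 50% to 80%. Promoters that started between 5% and 20% had a median change of -5.32 points from a median Baseline of 11.8%. Those between 20% and 50% had one of -11.4 points from 32.3%, and those between 50% and 80% one of -21.8 points from 66.6%. The 4926 promoters at 80% or more had one of -23.3 points from 92.7%. Set against these Baseline medians the order was turned, and the share lost was smallest at 80% or more. In the last class the test called 4900 promoters (99.5%), and 4361 (88.5%) without Cl.6. By sequence, the 5561 low-CpG promoters had a median Baseline of 84.6% and a median change of -22.7 points, with 93.3% called. The 6915 high-CpG promoters had a median Baseline of 14.7% and a median change of -5.48 points, with 69.3% called. Their median changes were -3.54 points in Cl.3, -6.38 in Cl.6 and -4.95 in Cl.9, so that Cl.6, whose Baseline stood apart in unmethylated DNA, had the largest. Among promoters at 80% or more in every clone, the median change was -24.3 points for low-CpG, -20.7 for intermediate and -19.6 for high-CpG promoters.

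The 8 promoters with the largest falls lost at least 49.8 points and all belonged to the low-CpG class, as did 5561 of the 17630 tested promoters and 2757 of the 4244 at 80% or more in every Baseline library, and they are described, not tested further, since the size of the fall chose them. GGT5, a gamma-glutamyltransferase, had a Baseline promoter mC of 94.3%, 82.2% and 88.6% in Cl.3, Cl.6 and Cl.9 and a Knockdown mC of 50.5%, 9.17% and 33.3%. Cl.6 was the lowest of the 3 at Knockdown here, unlike in the library as a whole. ABCG1, a cholesterol exporter, fell from 94.9%, 92.0% and 87.4% to 48.0%, 34.3% and 25.3%, a change of -55.6 ± 7.81 points. RACK1, a scaffold protein of the small ribosomal subunit, fell from 97.2%, 85.3% and 92.7% to 47.6%, 48.6% and 22.5%. All windows lie at the outermost annotated 5′ end of the gene, which need not be the start used in these cells.
SLN, which encodes the calcium pump inhibitor sarcolipin, fell by 50.9 ± 11.2 points. MICOS10, a subunit of the complex that shapes mitochondrial cristae, fell by 50.3 ± 15.5 points, and NECTIN3, a cell adhesion protein, by 50.3 ± 10.2 points. NECTIN3 again had its lowest Knockdown level in Cl.6 (21.9%, against 57.9% in Cl.3 and 38.3% in Cl.9), where its Baseline level was also the lowest (74.5%, against 96.9% and 97.4%). INTS6, a subunit of the Integrator complex, fell by 50.04 ± 14.1 points and GORASP1, a Golgi stacking protein, by 49.8 ± 13.8 points. Baseline and Knockdown levels of the 3 clones did not overlap in any of the 8, as in 66.8% of all promoters and 96.8% of those at 80% or more in every Baseline library. Each window held 5 to 18 measured CpGs.

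At the other end, a few methylated promoters kept nearly all of their methylation. Among the 4244 promoters at 80% or more in every Baseline library, the 8 with the smallest falls changed by -0.543 to -6.35 points. PCDH7, a protocadherin, had a promoter mC of 96.8%, 98.5% and 95.5% at Baseline and 96.6%, 99.2% and 93.4% at Knockdown. It was slightly higher in 1 clone and lower in the others, and the groups overlapped (edgeR adjusted p = 0.736). RHBDD1, a rhomboid protease, had 92.7%, 92.3% and 91.2% at Baseline and 92.0%, 84.9% and 87.8% at Knockdown (adjusted p = 0.227). GNG4, a G protein gamma subunit, changed by -4.29 ± 3.70 points (adjusted p = 0.0945).
PAPOLB, a testis poly(A) polymerase, fell by 6.35 ± 6.07 points and was called. RPL3L, a ribosomal protein paralog of striated muscle, and PTPN20, a tyrosine phosphatase, were called as well, although their Knockdown levels overlapped the Baseline levels. Of these 8 promoters, 7 were of the high-CpG or intermediate class, against 528 and 959 of the 4244 promoters they were drawn from. In all 8, between 75% and 95.8% of the CpGs had another CpG within less than 20 bp, as had 76.1% of all promoter CpGs. In KRTAP3-1, a hair keratin-associated protein, Cl.3 rose from 81.2% to 90.8% while Cl.6 and Cl.9 fell to 74.8% and 70.9%. Without Cl.6 or without Cl.9 the 4 called promoters of this group were no longer called. PTPN20 and KRTAP3-1 have near-identical relatives in the genome, and their reads may be shared with them.

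Nearly all gene bodies fell. Of 18627 tested bodies of protein-coding genes (from 1 kb inside the gene to its 3′ end), 18564 were lower in all 3 clones, and edgeR called 18322 falls (98.4%) and 0 rises, with 0 rises also at an unadjusted p under 0.05 and 18496 calls by limma. The median change was -21.2 points from a median Baseline of 89.5%, with 5th and 95th percentiles of -28.5 and -14.5 points. Without Cl.6 the test called 6202 bodies, while leaving out Cl.3 or Cl.9 gave 18513 and 16621. Along genes the loss varied little past the first part. In the middle of genes of 5 kb or more, at 50% to 55% of the length, mC fell by 12.3, 18.8 and 29.7 points. In the last 5% before the 3′ end it fell by 13.1, 19.7 and 31.6 points, and in the first kb past the 3′ end by 12.04, 18.3 and 28.5 points. Among bodies at 80% or more in every Baseline library, those under 5 kb had a median change of -24.2 points and those of 50 to 100 kb one of -20.6 points. Short bodies also varied more, with 5th and 95th percentiles of -36.2 and -15.2 points.

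The 8 bodies with the largest falls, among those with at least 50 CpGs, are described, not tested further, since the size of the fall chose them. RPL18, a protein of the large ribosomal subunit (chr19:48615328-48618184, minus strand), had a Baseline body mC of 91.8%, 89.3% and 79.6% and a Knockdown mC of 58.5%, 51.7% and 24.7%. RPL26, another protein of that subunit on chromosome 17, went from 82.2%, 86.1% and 69.8% to 45.4%, 46.1% and 23.4%, a change of -41.1 ± 4.87 points. The Baseline and Knockdown levels of RPL18 and RPL26 did not overlap, as in 97.5% of all bodies. PSG7 and PSG6, pregnancy-specific glycoproteins of a cluster on chromosome 19, fell by 39.0 ± 15.1 and 37.1 ± 14.4 points, and reads can be split between the near-identical genes of that cluster. NAPRT, which makes NAD from nicotinic acid, fell by 38.9 ± 9.08 points, ENTPD2, an ectonucleotidase, by 37.1 ± 14.1, HSPB7, a small heat shock protein of heart, by 37.0 ± 10.9, and KLK1, a kallikrein, by 36.6 ± 15.9 points. All 8 were between 2857 and 16478 bp long, and of the 18627 tested bodies 2220 were under 5 kb and 5113 between 5 and 20 kb. The 8 were drawn from 16359 called bodies with at least 50 CpGs, whose lengths are not given here.

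Of the 8 methylated bodies with the smallest falls, 4 were zinc finger genes. ZNF genes made up 277 of the 13109 tested bodies at 80% or more in every Baseline library. The 8 were drawn from the 11890 of these that also had at least 50 CpGs. ZNF791 on chromosome 19 had a body mC of 95.7%, 95.9% and 95.5% at Baseline and 91.5%, 85.2% and 76.7% at Knockdown over 296 CpGs. ZNF544 on the same chromosome went from 95.9%, 96.5% and 95.1% to 90.6%, 85.4% and 76.1% over 597 CpGs. ZNF146 and ZNF322 changed by -12.1 ± 9.68 and -12.4 ± 7.53 points. ERVK3-1, a gene derived from an endogenous retrovirus, changed by -11.7 ± 6.88 points, and the unnamed gene ENSG00000283515, whose annotated body overlaps those of ZNF544 and ERVK3-1, by -11.9 ± 5.69 points, so that these 3 share CpGs. LRRC4, a leucine-rich repeat protein of synapses, and MMP7, the secreted protease matrilysin, changed by -11.4 ± 8.08 and -12.5 ± 8.40 points. In all 8 the Knockdown levels still lay below the Baseline levels, as in 99.9% of bodies at 80% or more, and all were called as falls.

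Points and log odds order these genes differently. On the log odds scale the library-wide change was -0.853, -1.29 and -1.80 log2 units in Cl.3, Cl.6 and Cl.9, and a body that starts near 96% must lose few points to match it. When this change was taken as the reference, 13963 bodies (75.0%) had fallen further and 1142 (6.13%) less far. ZNF791 and RPL18 were both among those that fell further, although RPL18 lost 41.9 points and ZNF791 11.2. So were 13133 of the 14031 bodies with a mean Baseline of 80% or more. The size of the fall chose both genes, so no p-value is given for them. The median body of each clone itself lay beyond the library-wide change, at -1.47, -2.08 and -2.62 log2 units, and was also taken as the reference. The split was then 6425 further and 6662 less far, and a median reference makes it nearly even by construction. For promoters the library-wide reference gave 3795 further (21.5%) and 926 less far (5.25%), and the median promoter as reference 2825 and 2341. The promoter counts with the library-wide reference fell to 1891 further and 119 less far without Cl.9, to 2239 and 126 with limma and to 1168 and 48 without the clone block. For bodies, the count of those less far fell to 513 without Cl.9 and to 126 without the block. Losses are therefore given below in points, and for the gene lists also among promoters or CpGs that were highly methylated at Baseline.

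Within a gene, the promoter and the body had similar median losses where both were methylated. In the 17061 genes with both tested, the body fell further than the promoter in 74.3%, with median Baseline levels of 89.8% in bodies and 37.0% in promoters. In the 2775 genes with 80% or more in both, the body fell further in 49.4%, and the median changes were -22.8 points in promoters and -22.5 points in bodies. Median differences between body and promoter of the same gene were then -0.164, 0.0801 and 0.796 points in Cl.3, Cl.6 and Cl.9, so the sign was not shared by the clones.

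Intergenic intervals lost methylation as bodies did. Of 24724 intervals of at least 1 kb between annotated genes, 24652 were lower in all 3 clones, 24461 were called as falls (98.9%) and 0 as rises, with 0 rises at an unadjusted p under 0.05, and limma called 24625. The median change was -21.8 points. Leaving out Cl.6 reduced the calls to 1429, with 24626 and 21300 when Cl.3 or Cl.9 was left out. The largest falls among intervals of at least 10 kb and 50 CpGs were between the pseudogenes ETF1P3 and CCNYL5 on chromosome X (-35.6 ± 11.5 points), between PSG3 and PSG8 on chromosome 19 (-34.9 ± 8.02 points), in the same gene cluster as the bodies of PSG6 and PSG7 above, and between CSRP3-AS1 and ENSG00000255160 on chromosome 11 (-34.7 ± 11.04 points). In the first of these, mC was 74.1%, 76.1% and 78.7% at Baseline and 49.4%, 41.5% and 31.1% at Knockdown. The smallest falls among methylated intervals were between CFAP70 and ANXA7 (-12.02 ± 6.65 points), between SRP9 and LEFTY3P (-12.9 ± 7.44 points) and between BTAF1 and CPEB3 (-13.2 ± 8.18 points). In these 3 intervals 45.5% to 60.9% of the CpGs had a neighbour within less than 20 bp, in the 3 with the largest falls 17.4% to 37.0%, and over all intergenic CpGs 42.2%.

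Values by the Baseline domain of a CpG differed more than those by annotation. The domains were called from the methylation of these same Baseline libraries. They therefore sort CpGs by starting level, and a CpG that starts low has little to lose. In the Baseline domain lists of the same clone, 47.0% of promoter CpGs lay in unmethylated or low-methylated regions. These fell by 1.54 points from 4.24% in Cl.3, by 3.94 points from 6.32% in Cl.6 and by 2.43 points from 4.21% in Cl.9. Partially methylated domains were taken without the unmethylated and low-methylated regions inside them, so the values below are not those of whole domains. In highly methylated domains, promoter, gene body and intergenic CpGs fell by 22.6, 21.5 and 22.3 points. In this remainder of the partially methylated domains they fell by 24.7, 25.7 and 25.3 points. The remainder lost more in each clone, although in gene bodies it started at 70.996% rather than 92.98%. Gene body CpGs there lost 16.4, 23.4 and 37.4 points, against 12.8, 19.6 and 32.1 points in highly methylated domains.

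The UHRF1 promoter, measured at the outermost annotated 5′ end, where the window overlaps that of ARRDC5, fell from 93.5%, 92.3% and 91.6% to 79.4%, 76.4% and 66.8%, a change of -18.3 ± 5.74 points (adjusted p = 4.41e-07). The UHRF1 body fell by 22.6 ± 9.26 points. The promoter of DNMT1 was partly methylated (51.7%, 50.6% and 40.2% at Baseline) and had 42.7%, 39.0% and 26.2% at Knockdown, with overlapping groups (adjusted p = 0.094), and it passed the threshold with all 15 libraries in 1 fit and with a minimum of 10 reads per CpG, where the log2 odds change was -3.80 instead of -0.71 over the CpGs that remained. The DNMT1 body fell by 19.4 ± 9.57 points. TRDMT1, a transfer RNA methyltransferase, and USP7, the deubiquitinase that binds UHRF1 and DNMT1, had promoter changes of -25.0 ± 7.45 and -25.1 ± 12.1 points. Over this list of 24 genes, 14 of 22 tested promoters (63.6%, against 79.4% of all promoters) were called as falls and 24 of 24 bodies (98.4% of all bodies were), with a median body change of -19.7 points against -21.2 over all bodies.

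Over all tested promoters, 79.4% were called as falls and the median change was -12.6 points from a median Baseline of 37.9%. The lists differ in Baseline level, which the fall in points followed, so these values are not a matched reference. Among the 4244 promoters at 80% or more in every Baseline library the median change was -23.0 points. Of promoters with a mean Baseline of 80% or more, 99.5% were called. For each list below the median at 80% or more in every Baseline library is given as well, without matching for the CpG class of the promoters. Among 12 Wnt antagonists, secreted proteins that block Wnt ligands, 7 of 9 tested promoters (77.8%) were called. Their median Baseline was 89.2% and their median change -22.7 points, or -23.0 points in the 6 at 80% or more. NOTUM, which removes the lipid of Wnt ligands, fell from 97.5%, 96.8% and 96.0% to 80.4%, 76.7% and 63.4%. SFRP1 and SFRP2, secreted frizzled-related proteins, fell by 25.2 ± 10.4 and 27.6 ± 19.3 points, the latter with 1 clone (Cl.9, 86.9% to 37.0%) far below the others, and FRZB, of the same family, fell by 20.5 ± 10.4 points. In the list of genes often silenced in colorectal cancer, 19 of 23 tested promoters (82.6%) were called, and the median change was -17.9 points from 83.8%. It was -20.1 points in the 12 at 80% or more.
HIC1, a transcriptional repressor, had a promoter mC of 97.4%, 98.1% and 99.0% at Baseline and 89.3%, 86.7% and 82.6% at Knockdown. ID4, an inhibitor of DNA binding, had 96.9%, 100% and 100% at Baseline and 96.2%, 83.1% and 75.6% at Knockdown. The promoter of GATA4, an endoderm transcription factor, fell by 26.8 ± 15.3 points and that of RUNX3, a Runt family factor, by 19.5 ± 4.21 points. ID4 lay almost at its Baseline level in Cl.3 at Knockdown and well below it in Cl.9.

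In HOX and germline genes, as in the other lists, the named members are those with the highest Baseline promoter mC. HOX promoters had 30 of 36 tested members called (83.3%, against 79.4% of all promoters), with a median change of -14.0 points from 69.2%. In the 15 at 80% or more in every Baseline library the median change was -19.9 points, against -23.0 over all such promoters. That reference is not matched for CpG class, here or for germline genes. By class it was -19.6 points in high-CpG, -20.7 in intermediate and -24.3 in low-CpG promoters. HOXA7 and HOXA5, of the HOXA cluster, fell by 12.6 ± 4.50 and 12.7 ± 7.17 points from 97% or more, whereas HOXA9 fell by 21.4 ± 8.45 points and HOXD13 by 18.02 ± 11.2. The body of HOXA9 was nearly unmethylated, with 3.90%, 8.22% and 8.03% at Baseline and 1.15%, 2.21% and 0.989% at Knockdown, while its promoter window held 97.3% or more. Among germline genes, which are silenced by methylation in somatic cells, 14 of 18 tested promoters (77.8%) were called. Their median change was -14.8 points from 91.4%. In the 12 at 80% or more it was -15.6 points, against -23.0 over all such promoters. SYCP3, a synaptonemal complex protein, lost 6.58 ± 4.90 points and kept 95.6%, 93.8% and 85.6%, whereas TEX11, another meiosis gene, lost 21.2 ± 13.0 points. BRDT, a testis bromodomain protein, and TDRD1, a Tudor protein of the piRNA pathway, lost 15.3 ± 4.96 and 15.9 ± 9.65 points.

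In the list of interferon and RNA sensing genes, 24 of 28 tested promoters (85.7%, against 79.4% of all promoters) were called. Their median change was -15.8 points from 55.8%, and -21.6 points in the 8 at 80% or more in every Baseline library. ISG20, an interferon-induced exonuclease, fell from 94.6%, 98.1% and 96.6% to 80.6%, 64.4% and 45.5%. CGAS, the sensor of cytosolic DNA, had 94.5%, 100% and 96.4% at Baseline and 90.7%, 89.8% and 61.9% at Knockdown, a change carried mainly by Cl.9, without which it was no longer called. IFI27 and IFIT3, both interferon-induced, changed by -19.9 ± 16.2 and -14.4 ± 6.08 points. Among colon epithelium genes 22 of 23 tested promoters (95.7%) were called, and the median change was -22.8 points from 60.1%. It was -25.8 points in the 11 at 80% or more. CDX1, an intestinal homeobox factor, fell from 98.6%, 97.98% and 97.6% to 68.9%, 66.4% and 42.9%. CDH17, an intestinal cadherin, and FABP1, a fatty acid binding protein, fell by 19.5 ± 10.3 and 25.8 ± 17.9 points.

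Gene families in clusters were described by the same counts. Keratin promoters had 48 of 50 tested members called (96%). Over all promoters the share was 79.4%, and over those with a mean Baseline of 80% or more 99.5%. The median change of keratin promoters was -25.5 points from 90.5%, and -24.2 points in the 33 at 80% or more in every Baseline library. Among them KRT24 fell by 28.6 ± 9.01 points, KRT35 by 24.0 ± 9.94, KRT31 by 19.8 ± 6.69 and KRT34 by 12.5 ± 6.04 points. Olfactory receptor promoters, which contain few CpGs, were tested in 198 of 400 genes, of which 170 (85.9%) were called. Their median change was -19.3 points from 53.6%, and -24.0 points in the 35 at 80% or more. OR10H1 had 99.4%, 98.4% and 95.7% at Baseline and 83.3%, 76.4% and 48.9% at Knockdown, and OR2K2, OR51B4 and OR5K1 changed by -26.0 ± 10.7, -19.4 ± 6.01 and -17.6 ± 9.08 points. Clustered protocadherins, adhesion proteins whose alternative promoters share constant exons, had 44 of 50 promoters called (88%) and a median change of -18.8 points from 68.5%. In the 8 at 80% or more the median change was -19.0 points. PCDHA12, with 88.5%, 95.7% and 94.0% at Baseline and 86.6%, 90.8% and 54.6% at Knockdown, overlapped between groups and was no longer called without Cl.9. PCDHA13, PCDHGA11 and PCDHGC3 fell by 19.2 ± 14.8, 19.8 ± 14.0 and 29.0 ± 13.9 points.

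Zinc finger and ribosomal protein genes, which supplied bodies at both ends of the ranking, were compared as whole lists. Of 475 tested ZNF bodies 466 were called (98.1%, against 98.4% of all bodies), and their median change was -18.4 points, against -21.2 points over all bodies. Among 82 tested bodies of cytosolic ribosomal protein genes 78 were called (95.1%), with a median change of -24.9 points and a range from -52.6 to -1.25. Because these genes differ in CpG density and Baseline level, only body CpGs methylated to 85% or more in the other 2 clones were then taken. Over all protein-coding genes such CpGs fell by 12.2 points in Cl.3, 19.2 in Cl.6 and 32.5 in Cl.9. In ZNF bodies they fell by 10.7, 17.7 and 30.0 points, and in ribosomal protein bodies by 15.1, 20.5 and 38.0 points. The ZNF values lay above, and the ribosomal protein values below, those of all genes in each clone also at 1 to 4, at 5 to 16 and at 17 or more CpGs within 250 bp. For 5 to 16 CpGs, the differences from all genes were 1.36, 1.27 and 2.10 points in ZNF bodies and -3.07, -1.67 and -6.29 points in ribosomal protein bodies. No test is given for these lists, which were chosen with earlier results of these data known.
The promoters of ZNF genes had a median change of -11.1 points from 37.6% (319 of 450 called, 70.9%, against 79.4% of all promoters). Those of ribosomal protein genes had one of -5.13 points from 16.6% (56 of 83 called, 67.5%). At 80% or more in every Baseline library the medians were -19.1 points in 62 ZNF promoters and -17.7 points in 5 ribosomal protein promoters. The most methylated members, ZNF451, ZNF358, ZNF510 and ZNF546, changed by -19.8 ± 9.20, -12.7 ± 2.89, -13.7 ± 13.5 and -11.6 ± 6.81 points. RPL22, RPL36 and the paralog RPL39L changed by -22.3 ± 11.9, -17.7 ± 12.04 and -15.1 ± 9.13 points in windows of the low-CpG class. In the other lists the differences from all genes at such CpGs had means from -2.80 points in olfactory receptor genes, which is more loss, to 3.33 points in clustered protocadherins, which is less. HOX genes had a mean difference of 0.183 points over all densities, which hid differences by density. They lost more than all genes in every clone at 1 to 4 CpGs within 250 bp (-3.82, -3.99 and -4.59 points). The same held at 5 to 16 CpGs (-4.56, -3.89 and -4.59 points), while at 17 or more the differences were -0.0988, -0.173 and 2.46 points. In clustered protocadherins the sign changed between clones at 1 to 4 and at 5 to 16 CpGs within 250 bp, and olfactory receptor genes lost less than all genes in every clone at 17 or more (1.06, 0.305 and 1.65 points). Genes of the methylation machinery lost less than all genes in every clone at each density, with a mean difference of 1.69 points.

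**Figure D4:**
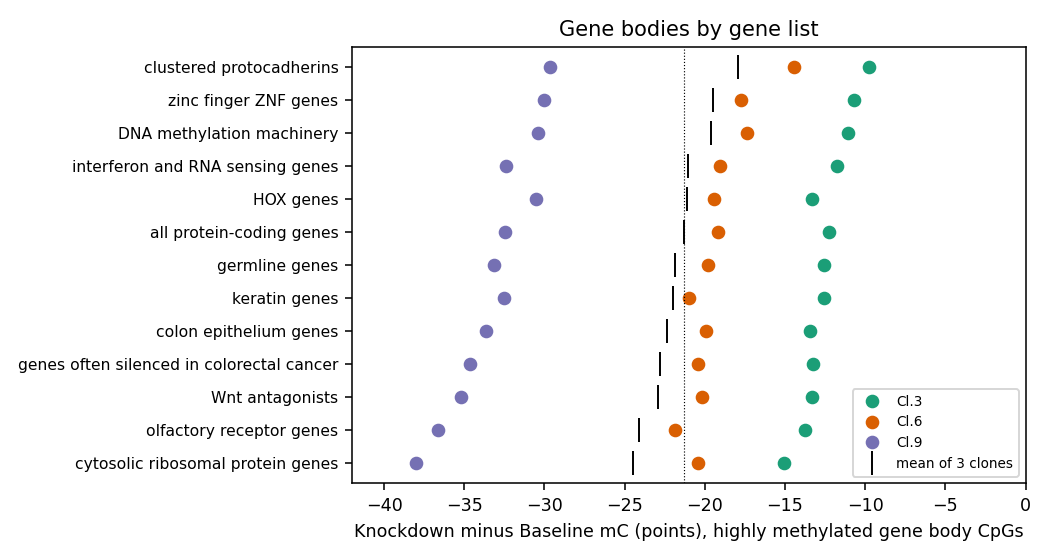
Knockdown minus Baseline mC (points, x axis) of highly methylated gene body CpGs in 12 gene lists and in all protein-coding genes (y axis), with 1 coloured point per clone, a black tick for the mean of 3 clones and a dotted line at the mean of all genes. Means run from -24.5 points in cytosolic ribosomal protein genes to -17.96 in clustered protocadherins, and the spread between clones is wider than that between lists.

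Chromosomes differed little. The mean change of the 3 clones ran from -21.1 points on chromosome 22 and -21.0 on chromosome 20 to -19.4 points on chromosomes 13, 18 and 21, and chromosome X changed by -20.2 points. Within a clone the chromosomes spread over 1.37 points in Cl.3, 1.66 points in Cl.6 and 3.05 points in Cl.9, less than the clones differed from each other. Chromosome 19, which has the highest density of CpGs (18.9 per kb), changed by 0.204, 0.249 and 0.285 points less than the mean of the others (mean 0.246 ± 0.0405, exact sign-flip p = 0.25), and with a minimum of 10 reads the difference was 0.0894 points. As a share of the Baseline level the loss ran from 24.8% on chromosome 17 to 29.7% on X. Over 23 chromosomes this share was smaller where the Baseline level was higher. Pearson r was 0.904 between Baseline mC and the signed percent change, which is negative for a loss. That is a description only, since both hold the Baseline level. The change in points did not go with the density of CpGs (r = -0.0858). By class, promoter changes ran from -14.5 points on X, where promoters started at 50.8%, to -11.7 points on chromosome 6.

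**Figure D5:**
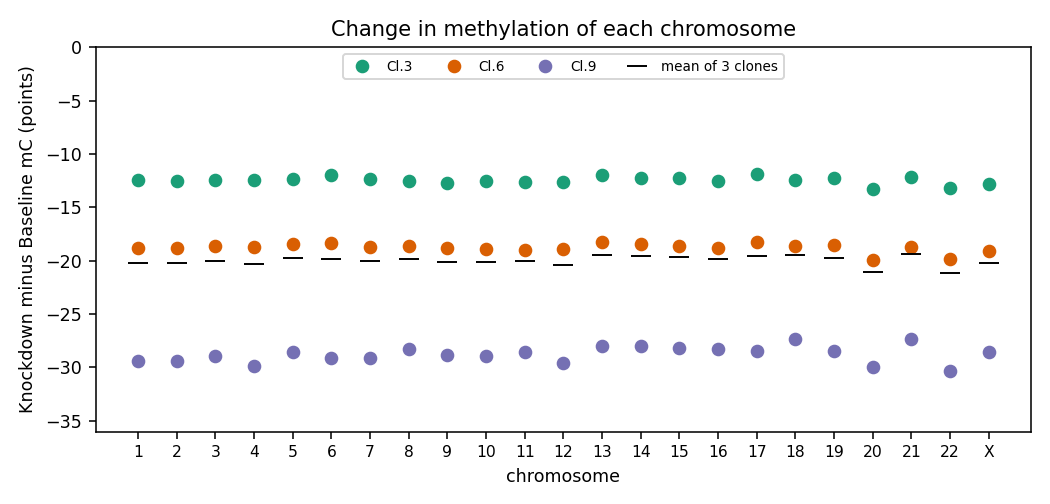
Knockdown minus Baseline mC (points, y axis) of all CpGs of each chromosome (x axis), with 1 coloured point per clone and a black tick for the mean of 3 clones. The points of a clone form a nearly level row on all 23 chromosomes, and the rows of the 3 clones do not overlap.

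At the scale of 1 Mb the loss reached everywhere it could be measured. All 2851 windows with at least 1000 CpGs were lower at Knockdown in all 3 clones, with a median of -20.1 points and 5th and 95th percentiles of -23.8 and -15.3. The window with the largest fall, on chromosome 12 (chr12:115000001-116000000), changed by -19.8, -26.9 and -41.6 points from 77.3%, 66.6% and 70.7%. The smallest falls were in windows that started low in at least 1 clone, such as chr6:92000001-93000000, which changed by -7.09, -13.5 and -17.7 points from 64.0%, 48.9% and 31.2%.

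The order of the clones was shared by most features. In 94.5% of gene bodies and 91.8% of intergenic intervals Cl.9 lost more points than Cl.6 and Cl.6 more than Cl.3, and in 41.6% of promoters, or 83.95% of those at 80% or more. Changes of gene bodies at 80% or more correlated across genes between clones with Pearson r of 0.768, 0.794 and 0.801 (13109 bodies, which are not independent and share CpG density and Baseline level). Of the 4 libraries of shDNMT1 bulk populations (R1 and R2), only the share of the loss taken by each class was compared. The difference between the changes of gene bodies and intergenic sequence, divided by the change over all CpGs, was -0.0446, -0.0339 and -0.0175 in the clones and 0.0405 and 0.0380 in R1 and R2. In points, gene bodies thus lost less than intergenic sequence after UHRF1 knockdown and more after DNMT1 knockdown. This contrast held on the scale of points only: as percent of Baseline the mean changes of gene bodies and intergenic sequence were -25.8% and -28.8% after UHRF1 knockdown and -46.0% and -47.6% after DNMT1 knockdown, and in log odds -0.959 and -0.905, and -1.605 and -1.477. With the 5 populations regrouped in all 10 ways (exact permutation, two-sided), p was 0.1, the smallest this comparison allows. Gene bodies against promoters gave 0.347, 0.324 and 0.431 for Cl.3, Cl.6 and Cl.9 and 0.413 and 0.415 for R1 and R2 (exact permutation p = 0.4). The shRNA and the kind of population, clone or bulk culture, cannot be told apart in this comparison.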

How the data were processed

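Whole-genome bisulfite sequencing was compared in 6 of 15 libraries, grouped by their labels. The authors deposited, for each CpG and library, counts of methylated reads and of all reads, with both strands summed. The alignment was to hg38, and the submitters' processing notes also name bedtools 2.25.0. All 29401360 positions on chromosomes 1 to 22, X and Y are CpGs of hg38, and positions on 128 other sequences were left out. Chromosome Y was also left out of all values by class, feature and window. The authors' domain lists, called per library, gave the Baseline domains. Recovery libraries were used only in the fit of all 15 libraries.

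Genes were those of GENCODE release 44. A CpG needed 5 reads in both libraries of its clone, and a promoter, body or interval 5 CpGs and 50 reads in every library. Class means were compared by exact two-sided sign-flip permutation. Features were tested with edgeR 4.0.16 (quasi-likelihood F test on methylated and unmethylated counts, the clone as a block, Benjamini-Hochberg adjustment at 0.05), with limma 3.58.1 as an alternative, in R 4.3.3, and other steps used Python 3.11.15, numpy 2.4.6, pandas 2.3.3 and scipy 1.17.1. The block was kept because same-clone libraries deviated together (correlations of 0.433, 0.526 and 0.345). On simulated counts with 100 features changed per size, edgeR recovered 59% of promoters, 96% of bodies and 98% of intervals changed by 2 log2 units of odds, and 0%, 8% and 24% of those changed by 1, with 3.28%, 2.80% and 6.87% false calls. limma recovered 0% of the promoters. All other simulated features were left unchanged, and the simulated libraries had no library-wide loss and no pairing by clone, unlike the real ones. These rates therefore do not carry over to the real calls, of which limma made 12067 in promoters. No 2 libraries of a group agreed within sampling noise.

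Named promoters and bodies were the 8 with the largest falls among those called and the 8 with the smallest among those at 80% Baseline mC or more in every clone, bodies having 50 CpGs or more. Intervals were the 3 at either end, and in each of 12 gene lists up to 4 members with the highest Baseline promoter mC were named, with UHRF1 and DNMT1. A few features that this rule selects are not reported here. Gene bodies discussed beside a promoter are those of named genes. The members and lists were chosen with earlier results of these data known. Alternatives were read minimums of 1 and 10, pooled reads, percent of Baseline, log odds, windows of 500 bp on either side, the canonical start, protein-coding genes only, highly methylated CpGs, a looser feature filter, limma, no block, all 15 libraries, another reference shift and each clone left out. edgeR's newer dispersion default was added after the data were seen.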

Additional observations from a re-analysis of the deposited data

How the results depend on the processing

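The falls of promoter, gene body and intergenic CpGs kept their direction under every alternative tried, and with 1 clone left out they ran from -14.9 to -10.5, from -24.1 to -15.7 and from -24.7 to -16.2 points. The difference between gene bodies and promoters (-9.26 to -5.19 points with a clone left out) was reversed to 1.80 as percent of Baseline and to 0.770 points at a Baseline mC of at least 85% in the same clone. The difference between gene bodies and intergenic sequence (0.530 to 0.594) was reversed to -0.0537 on the log odds scale. That of chromosome 19 ran from 0.226 to 0.267. Calls with a clone left out ran from 8992 to 14270 promoters, from 6202 to 18513 bodies and from 1429 to 24626 intervals, the lowest each time without Cl.6, and the cause was not tested. Departures from the library-wide change ran from 2010 (without Cl.9) to 4033 promoters and from 13476 to 15205 bodies, against 4721 and 15105 with all clones, and limma gave 2365 promoters. Without the replicate block, 9076 promoters were called instead of 13993, and 1216 instead of 4721 departed from the library-wide change. The fit without the block called 17535 bodies and 22967 intervals, and 10900 bodies departed. Of 1175 comparisons of 134 named results under an alternative, 1096 kept their direction and their side of the threshold, 65 lost the call, 47 of them without Cl.6, 14 gained it and 0 reversed. Of the 134, 8 were not called to begin with. Among those that lost it without the block were the promoters of RPL3L and PCDHA12. With 3 clones, the edgeR p-values rest on a spread that was shared across features (299 prior degrees of freedom for promoters, and infinite for bodies and intervals), and the exact sign-flip permutation over 3 clones cannot pass 0.05. Depth limits single CpGs: at 5 reads the 95% interval reached 32.6 points on either side.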
